A study of Mus musculus with 14 samples.

Results

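Genes that megakaryocytes and platelets use were examined in blood-forming cells of mice with and without the small GTPase Rheb1. The list held 38 genes, taken by name from the array annotation or through an older symbol, out of 27343 gene names on the arrays. By role it held 17 surface receptors, 8 genes of granule content, 7 of the cytoskeleton and granule trafficking, and 6 enzymes and other genes. A probe was found for 37 of them. The expression of Tubb1, a tubulin of platelets, is not analysed here. Of these 37 genes, 36 were bright enough to be tested, among 17720 genes in all. The thrombin receptor gene F2rl2 was left out because it was above background on 0 of 3 Rheb1-/- and 2 of 3 wild-type progenitor arrays, at means of -6.26 and -5.30.

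Megakaryocytes are the large marrow cells that shed platelets, and they arise from stem cells and early progenitors under the hormone thrombopoietin. They make the receptors through which platelets sense injured vessels, pack clotting proteins and chemokines into granules, and use a dedicated cytoskeleton and granule machinery to release them. Several of these genes are also active outside the lineage, in stem cells, mast cells or macrophages, and platelets can travel attached to other blood cells.

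Total RNA was measured on 14 single-colour Agilent arrays. The tested mice were Vav1-cre; Rheb1 fl/fl animals, in which the cre recombinase driven by Vav1, a gene of blood cells, deletes Rheb1 in the hematopoietic system. They are called Rheb1-/- here and were set against wild-type mice. The labels give no age, strain or other allele of the wild-type mice. Rheb1-/- and wild-type myeloid progenitors had 3 samples each, as did Rheb1-/- and wild-type myeloid cells, while hematopoietic stem cells had 1 sample per genotype. The progenitor samples are titled GMP, a usual short form for granulocyte-macrophage progenitors. Signals are given as log2 units above the 75th percentile of the array, so that a value below 0 lies under that percentile. Each gene was read by 1 probe, and levels are compared only within a gene. On mm9, the build of the array files, the probe of Pf4 lies at chr5:91202275-91202334, that of Ppbp at chr5:91198970-91199029 and that of Clec1b at chr6:129355215-129355274, all on the plus strand, and that of Nbeal2 at chr9:110529249-110529308 on the minus strand. Which exon or untranslated region they read was not analysed here.

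The arrays lay on 4 slides. Rheb1-/- progenitor arrays 1 and 2 shared slide 3 with wild-type progenitor arrays 2 and 3, and their difference is given as the within-slide value. Rheb1-/- progenitor array 3 lay on slide 4 and wild-type progenitor array 1 on slide 2. The 3 Rheb1-/- myeloid arrays also lay on slide 4, and the 3 wild-type myeloid arrays on slide 1 with the Rheb1-/- stem cell array, while the wild-type stem cell array lay on slide 2. Slide and genotype cannot be told apart in myeloid cells and stem cells. Wild-type myeloid cells and wild-type progenitors shared no slide, so slide and cell type cannot be told apart in wild type. A comparison of the genotype differences between cell types carries slide as well. Rheb itself, the deleted gene, had a signal of 3.26, 2.65 and 2.60 in Rheb1-/- progenitors, against 3.94, 4.04 and 3.78 in wild-type progenitors. In Rheb1-/- myeloid cells it read 2.15, 2.10 and 2.36, against 3.54, 2.93 and 2.80 in wild-type myeloid cells. The signal was lower on every Rheb1-/- array than on any wild-type array of its cell type, by -1.08 in progenitors and -0.89 in myeloid cells (limma adjusted p = 0.0939 and 0.0116). Summed over 16 neutrophil and granulocyte progenitor markers, the signal reached 11.33 to 11.41 in Rheb1-/- progenitors and 11.12 to 11.55 in wild-type progenitors on the log2 scale, and 16 of 16 were above background on each array.

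Promoters of 33 members, Tubb1 among them, were found in the RefSeq table for GRCm38.p6, as 36 windows from 250 bases before to 50 after a transcription start. They were searched on both strands for the letters AGATAA or TGATAA, bound by GATA factors, for AGGAAG or CGGAAG, bound by ETS factors, for TGTGGT, bound by RUNX factors, and for TGCTGAG, bound by NF-E2. These are the families that drive megakaryocyte genes. GATA letters stood in 30.6% of the members' windows and in 18.6% of all 32851 windows. ETS letters stood in 63.9% of the members' windows against 46.5% of all. Both kinds were present in 6 of 36 windows (16.7%, against 7.70% of all). RUNX letters were found in 13.9% (16.8% of all) and NF-E2 letters in 2.78% (7.84% of all). The forms of 1 family share their last letters, and no motif contains another. A match is a description of the letters and not a binding site. Shown here are the 250 bases before the start for 6 members with a lower mean signal in Rheb1-/- progenitors, chosen to span windows with both motifs, with 1 of them and with neither, 5′ to 3′ in the direction of the gene, with GATA and ETS letters in capitals.
Gp1ba: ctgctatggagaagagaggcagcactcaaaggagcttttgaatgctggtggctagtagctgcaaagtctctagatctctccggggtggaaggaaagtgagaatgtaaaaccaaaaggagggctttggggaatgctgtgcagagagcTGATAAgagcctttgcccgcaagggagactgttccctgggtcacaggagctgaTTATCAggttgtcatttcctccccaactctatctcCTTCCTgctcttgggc
Gp5: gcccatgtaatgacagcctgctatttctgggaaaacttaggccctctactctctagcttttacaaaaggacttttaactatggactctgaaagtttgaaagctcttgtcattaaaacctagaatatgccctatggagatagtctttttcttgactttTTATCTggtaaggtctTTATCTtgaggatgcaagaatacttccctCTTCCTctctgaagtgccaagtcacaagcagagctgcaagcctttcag
Itga2b: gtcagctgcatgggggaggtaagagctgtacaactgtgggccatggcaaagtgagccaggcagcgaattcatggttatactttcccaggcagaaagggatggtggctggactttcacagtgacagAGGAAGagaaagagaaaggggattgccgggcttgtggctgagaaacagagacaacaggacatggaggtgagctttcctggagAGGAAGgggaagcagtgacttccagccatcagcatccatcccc
Clec1b: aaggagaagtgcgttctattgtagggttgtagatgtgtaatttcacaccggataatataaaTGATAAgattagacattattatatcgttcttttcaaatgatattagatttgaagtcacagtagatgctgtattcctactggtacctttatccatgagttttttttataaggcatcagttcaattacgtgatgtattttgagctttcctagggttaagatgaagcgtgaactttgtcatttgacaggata
Pf4: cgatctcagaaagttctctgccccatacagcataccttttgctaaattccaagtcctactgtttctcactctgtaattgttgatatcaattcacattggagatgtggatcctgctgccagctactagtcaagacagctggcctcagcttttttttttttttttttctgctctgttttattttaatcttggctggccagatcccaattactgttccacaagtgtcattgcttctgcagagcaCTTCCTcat
Ppbp: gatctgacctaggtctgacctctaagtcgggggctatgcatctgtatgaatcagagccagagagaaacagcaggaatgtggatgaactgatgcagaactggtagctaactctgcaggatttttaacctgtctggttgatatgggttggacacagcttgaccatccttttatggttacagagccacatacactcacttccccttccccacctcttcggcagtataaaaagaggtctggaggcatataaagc
Gp1ba lies at chr11:70638872-70639121 on the plus strand and Gp5 at chr16:30310782-30311031 on the minus strand, and these windows hold 2 GATA matches and 1 ETS match each. Itga2b, at chr11:102469884-102470133 on the minus strand, has 2 ETS matches. Clec1b, at chr6:129397047-129397296 on the plus strand, has 1 GATA match. Pf4, at chr5:90772185-90772434 on the plus strand, has 1 ETS match, and Ppbp, its neighbour at chr5:90768268-90768517 on the plus strand, has neither set of letters. Counted from the transcription start, the ETS match began at -16 in Gp1ba and at -9 in Pf4. The absence of a match says only that these letters are not in the window.

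In myeloid progenitors most of the megakaryocyte and platelet genes had a lower signal in Rheb1-/- cells, without any single one passing the test across all genes. The platelet chemokines Pf4 and Ppbp, the receptor Treml1 of platelet granules, the clotting protein Vwf and the guanylate cyclase subunit Gucy1a1 differed by between 3.1-fold (Vwf) and 4.57-fold (Ppbp). Of 36 members, 33 lay below 0, the median log2 difference was -1.12 against 0.02 over all genes tested, and within the slide the members' median was -0.78. By limma, 0 members passed an adjusted p of 0.05 in either direction, where 0.0226% of all genes were lower and 0.0508% higher by that rule. At an unadjusted p under 0.05, 25 members were lower and 0 higher (5.19% and 6.87% of all genes). For 23 members every Rheb1-/- array lay below every wild-type array, which was so for 8.97% of all genes. Gp6, Gucy1b1 and Slamf1 were tested only because every wild-type progenitor array read them above background. That is the group where they were higher, so their differences here are not independent of the filter. Each is counted among the 33 below 0, and Gp6 and Gucy1b1 also among the 23 without overlap. In these bulk samples fewer cells of a type and less RNA per cell cannot be told apart.

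Among the receptors, the C-type lectin receptor Clec1b (CLEC-2), through which platelets answer podoplanin, had a signal of -2.13, -2.92 and -2.60 in Rheb1-/- progenitors and of -1.10, -1.13 and -1.30 in wild-type progenitors. All 3 Rheb1-/- arrays were below all wild-type ones, and the difference was -1.37 ± 0.21 (SE, n = 3 and 3, limma adjusted p = 0.0563), or -1.31 within the slide. Gp1bb, a subunit of the von Willebrand receptor, had -3.84, -4.43 and -4.17 in Rheb1-/- progenitors and -2.53, -2.90 and -3.19 in wild-type progenitors. These groups did not overlap either (difference -1.27 ± 0.20, limma adjusted p = 0.0563; within the slide -1.09). Treml1, a receptor brought to the surface when platelets are activated, had -0.01, -0.59 and -1.21 in Rheb1-/- progenitors and 1.85, 1.57 and 0.85 in wild-type progenitors. The lowest wild-type array was still above the highest Rheb1-/- array, at a difference of -2.02 ± 0.35 (limma adjusted p = 0.0754; within the slide -1.51). Gp9, which joins Gp1ba and Gp1bb in the same complex, had -0.25, -0.77 and -1.15 in Rheb1-/- progenitors and 0.41, 0.58 and 0.27 in wild-type progenitors, with no overlap (difference -1.14 ± 0.22, limma adjusted p = 0.0837; within the slide -0.93).

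The other parts of the von Willebrand receptor lay in the same direction, with Gp1ba at -1.68 (-1.32 within the slide) and Gp5 at -1.64 (-1.35 within the slide). The integrin subunits Itga2b and Itgb3, which together bind fibrinogen, differed by -1.13 and -0.86. A second probe of Itgb3, also above background on all 12 arrays, gave 0.03, so the Itgb3 value rests on the choice of probe. Gp6, the collagen receptor, had the largest difference, -2.76 ± 0.87 (limma adjusted p = 0.259), and wild-type array 1 largely set it. Its values were -6.55, -6.15 and -5.89 in Rheb1-/- progenitors, with 1 of 3 arrays above background, and -0.92, -4.30 and -5.09 in wild-type progenitors. Within the slide, where wild-type array 1 does not enter, the Gp6 difference was -1.65. The ATP channel P2rx1 differed by -0.79, the adhesion receptor Slamf1 by -1.35 and the tetraspanin Cd9 by -0.39. The ADP receptor P2ry12 was not above background on any progenitor array. P-selectin (Selp, 0.36) and the thrombin receptor F2rl3 (0.42) were above 0, and Cd226 (-0.27) was above background on 1 of 6 arrays.

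Among the granule genes, Pf4 (platelet factor 4) had a signal of 3.49, 2.70 and 2.29 in Rheb1-/- progenitors and of 5.23, 5.26 and 4.56 in wild-type progenitors. The groups stood apart, and the difference was -2.19 ± 0.41 (limma adjusted p = 0.0813; within the slide -1.81). Ppbp, the precursor of the neutrophil-attracting chemokine of platelets, had -2.65, -3.68 and -3.68 in Rheb1-/- progenitors and -0.70, -0.99 and -1.75 in wild-type progenitors, a difference of -2.19 ± 0.52 (limma adjusted p = 0.130; within the slide -1.80). Again no Rheb1-/- array reached the wild-type range. Vwf, the large protein that tethers platelets to collagen, had 0.50, 0.02 and -0.51 in Rheb1-/- progenitors and 1.82, 1.87 and 1.22 in wild-type progenitors. The difference was -1.63 ± 0.29 (limma adjusted p = 0.0754; within the slide -1.28), and a second Vwf probe gave -1.58. Mmrn1, which binds factor V in granules, differed by -1.91 (-1.42 within the slide), and the protease inhibitor Serpine2 by -0.52. Factor V itself (F5) and the factor XIII subunit F13a1 differed by -0.06 and -0.17. Thrombospondin (Thbs1) varied from -5.54 to -1.37 over the Rheb1-/- arrays, which took in the wild-type range of -2.95 to -1.93.

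The genes of cytoskeleton and trafficking ranged from -2.03 to -0.18. Ehd3, a protein of endosome recycling, had -2.12, -2.43 and -2.96 in Rheb1-/- progenitors and -0.60, -0.79 and -1.36 in wild-type progenitors. The groups did not overlap (difference -1.58 ± 0.27, limma adjusted p = 0.0742; within the slide -1.20). The LIM protein Fhl1 differed by -2.03 and Rab27b, a GTPase of granule docking, by -1.74, while pleckstrin (Plek) differed by -0.92. Kindlin-3 (Fermt3), which switches integrins on, and Nbeal2, which α granules need to form, differed by -0.18 and -0.22. Of the enzymes, Gucy1a1, a subunit of the nitric oxide receptor that restrains platelets and is listed on the array as Gucy1a3, had -4.19, -4.06 and -4.96 in Rheb1-/- progenitors and -2.30, -2.33 and -3.13 in wild-type progenitors. No array overlapped (difference -1.82 ± 0.33, limma adjusted p = 0.0754; within the slide -1.40), and its partner Gucy1b1 differed by -2.11 (-1.48 within the slide). The prostaglandin enzymes diverged, with thromboxane synthase (Tbxas1) at -0.53 and cyclooxygenase 1 (Ptgs1) at 0.16, and the lipoxygenase Alox12 had -0.40.

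**Figure D1:**
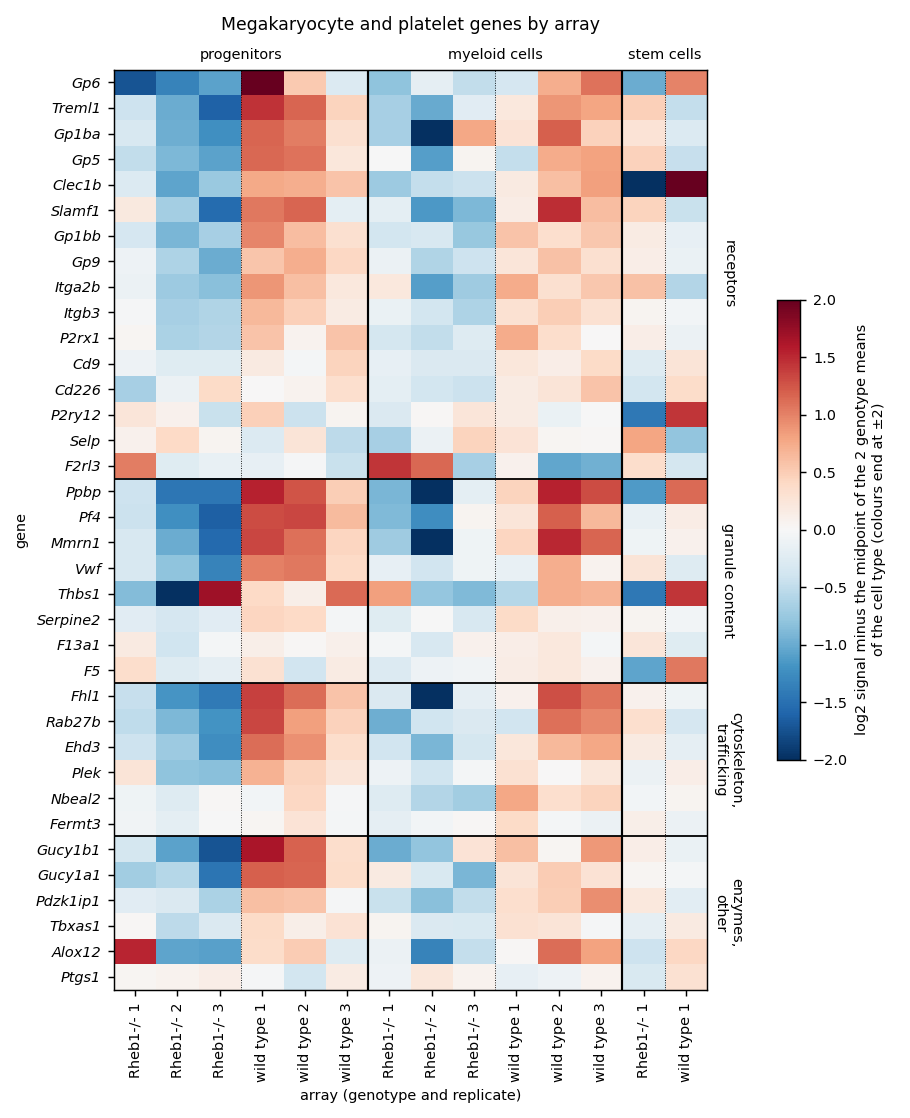
The heat map shows the 36 tested members in rows, grouped by role, and the 14 arrays in columns, as the log2 signal minus the midpoint of the 2 genotype means of that cell type (blue lower, red higher). Rheb1-/- progenitor columns are mostly blue and wild-type ones mostly red, with Rheb1-/- array 1 and wild-type array 3 the palest of their progenitor groups, and the stem cell pair shows a mix of both.

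The strength of the contrast differed between arrays of a genotype. The median of the members, each taken as its deviation from its own mean over the 12 replicated arrays, was 0.04, -0.27 and -0.27 on Rheb1-/- progenitor arrays 1, 2 and 3, and 0.90, 0.81 and 0.38 on wild-type progenitor arrays 1, 2 and 3. The number of members past limma's adjusted p depended on the arrays kept. Without Rheb1-/- array 1 it was 9 lower (0.312% of all genes), without wild-type array 3 it was 4 (0.113% of all genes), and it was 0 without any of the other 10 arrays. With normexp background correction 11 passed (0.113% of all genes). Clec1b and Gp1bb passed in 5 of 27 other settings, with adjusted p values of 0.0175 to 0.526 and 0.0291 to 0.526.

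Regulators of the lineage and other platelet genes were read beside the members. Of 28 tested transcription factors and thrombopoietin signalling genes, 0 passed and 5 were lower at an unadjusted p under 0.05 by limma, with a median of -0.06. At that p 5.19% of all genes were lower and 6.87% higher. Of 43 other platelet genes 0 passed, while 15 were lower and 3 higher at an unadjusted p under 0.05 (median -0.31), with the G protein subunit Gng11 at -0.51 (limma adjusted p = 0.0742). Markers of neighbouring lineages also lay lower, and their part in the result was not tested. Of 17 erythroid markers 16 were below 0 and 4 lower at an unadjusted p under 0.05, and their summed log2 signal was 2.84 to 4.27 in Rheb1-/- progenitors and 3.73 to 4.61 in wild-type progenitors. Of 14 eosinophil, basophil and mast cell markers all 14 were below 0 and 5 lower at that p (summed signal 9.23 to 10.27 in Rheb1-/- and 10.03 to 10.33 in wild-type progenitors). Of 19 stem cell markers 4 were lower at that p (5.68 to 5.88 in Rheb1-/- and 5.99 to 6.34 in wild-type progenitors). Of 14 endothelial markers 3 were lower (2.59 to 2.79 in Rheb1-/- and 2.65 to 2.90 in wild-type progenitors). Of 18 monocyte and macrophage markers 1 passed, Ms4a7 (-1.83, limma adjusted p = 0.0379), and 8 were lower at that p, while 0 of 9 B cell, 0 of 10 T and NK cell and 0 of 16 neutrophil markers passed. The members' own summed signal was 6.30 to 6.76 in Rheb1-/- and 6.99 to 7.20 in wild-type progenitors.

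**Figure D2:**
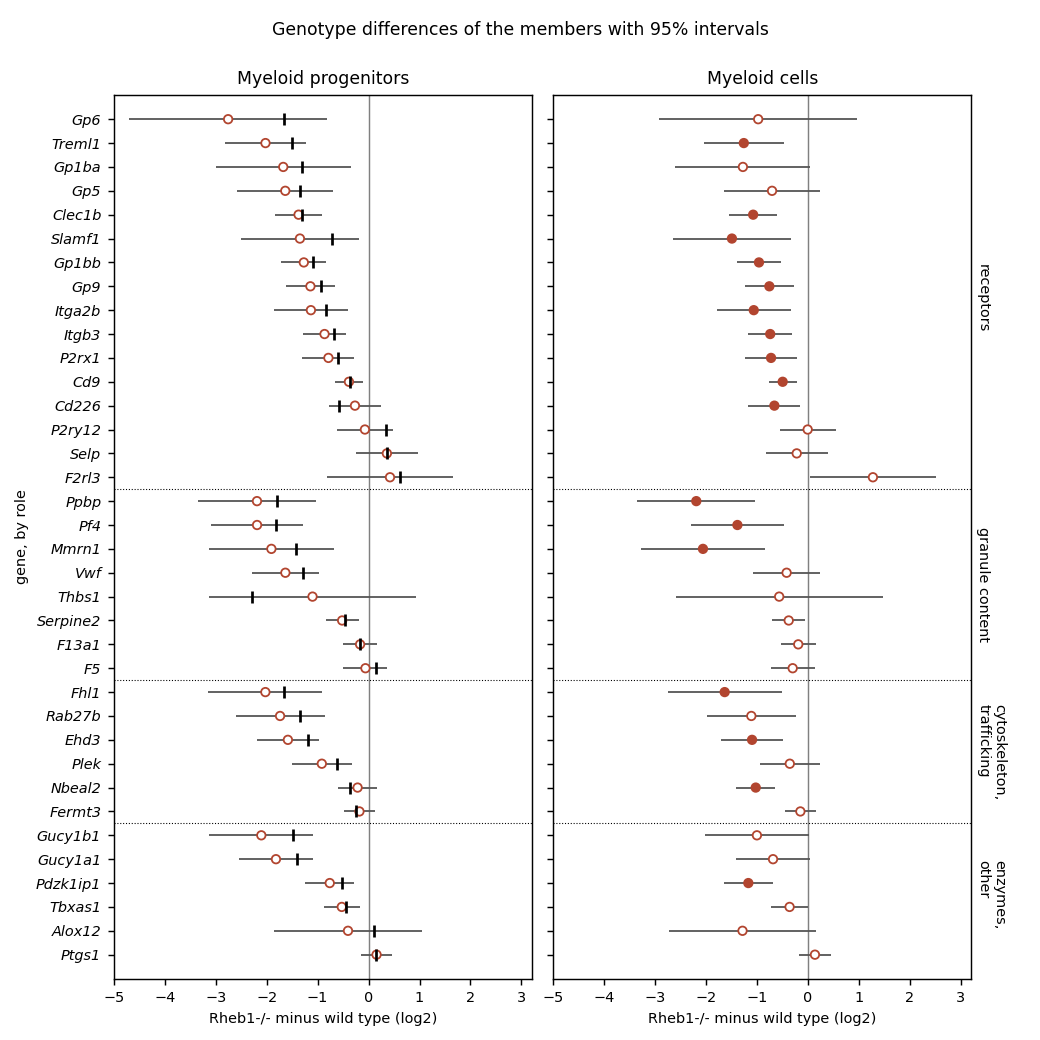
Log2 differences, Rheb1-/- minus wild type, of the 36 members with 95% intervals in progenitors (left) and myeloid cells (right), with filled points where limma's adjusted p was under 0.05 and black ticks for the within-slide value in progenitors. On the left 33 points lie below 0 and none is filled, and on the right 34 lie below 0 and 17 are filled.

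In myeloid cells 17 of the 36 members fell in Rheb1-/- samples and 0 rose. By the same limma rule 17.7% of all genes were lower and 16.5% higher. The falls took in most receptors of the list, the granule proteins Ppbp, Mmrn1 and Pf4, and Nbeal2, Ehd3, Fhl1 and Pdzk1ip1. The median log2 difference of the members was -0.75, against -0.08 over all genes tested, and 34 of 36 lay below 0. In 22 members every Rheb1-/- array lay below every wild-type array, as in 29% of all genes. At an unadjusted p under 0.05, 20 were lower and 1 higher (24.5% and 20.5% of all genes).

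Ppbp had a signal of -3.11, -4.37 and -2.38 in Rheb1-/- myeloid cells and of -1.75, -0.65 and -0.88 in wild-type myeloid cells. It fell 4.58-fold (-2.20 ± 0.52 in log2, SE, n = 3 and 3, with a limma adjusted p = 0.0101), although Rheb1-/- array 2 was lower than the rest. Pf4 had -0.72, -1.07 and 0.22 in Rheb1-/- myeloid cells and 0.41, 1.36 and 0.81 in wild-type myeloid cells. Its groups came close without overlapping, and it fell 2.62-fold (-1.39 ± 0.41, limma adjusted p = 0.0249). Mmrn1 was not well above background on any Rheb1-/- myeloid array, at -6.12, -7.72 and -5.50, and read -4.99, -3.91 and -4.26 in wild-type myeloid cells. By group means it was at least 2.69-fold lower in Rheb1-/- cells (limma adjusted p = 0.0163 for the measured difference). For this bound each Rheb1-/- array took the larger of the gene's own signal and the lowest well-measured signal of that array. The bound carries no interval. A second, dim Mmrn1 probe was above background on 0 of 12 arrays. Vwf had -2.15, -2.37 and -2.07 in Rheb1-/- and -2.14, -1.26 and -1.92 in wild-type myeloid cells, and these ranges overlapped (-0.42, limma adjusted p = 0.293). Its second probe gave -1.10.

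Receptors made up 10 of the 17 falls. Treml1 had -2.96, -3.29 and -2.51 in Rheb1-/- myeloid cells and -2.07, -1.40 and -1.50 in wild-type myeloid cells, and fell 2.40-fold with no overlap (-1.26 ± 0.35, limma adjusted p = 0.0208). Slamf1 had -6.64, -7.59 and -7.35 in Rheb1-/- and -6.30, -4.97 and -5.82 in wild-type myeloid cells, and only 1 of the 6 arrays, a wild-type one, was above background. It was at least 1.15-fold lower (limma adjusted p = 0.0498), the weakest of these calls. Clec1b fell 2.11-fold, with -0.74 to -0.44 in Rheb1-/- myeloid cells and 0.17 to 0.81 in wild-type myeloid cells. Itga2b, Gp1bb, Gp9, Itgb3, P2rx1, Cd226 and Cd9 fell too, with log2 differences of -1.07, -0.96, -0.76, -0.74, -0.73, -0.66 and -0.50. The second Itgb3 probe, above background on all 12 arrays, gave -0.37, so the size of that fall rests on the choice of probe. Cd226 was above background on 1 of 3 Rheb1-/- and on 3 of 3 wild-type arrays, and Itga2b on 2 of 3 and 3 of 3. Cd226 was tested only because all wild-type myeloid arrays read it above background. Its fall, counted among the 17, is therefore not independent of the filter. The remaining receptors did not pass. P2ry12, which was well measured here, had -2.53, -2.22 and -2.0 in Rheb1-/- and -2.09, -2.38 and -2.26 in wild-type myeloid cells, with a difference of -0.01 (95% interval -0.56 to 0.54). F2rl3 had a difference of 1.27 (limma adjusted p = 0.101), above background on 1 of 6 arrays.

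Of the 6 genes of cytoskeleton and trafficking, Ehd3, Fhl1 and Nbeal2 fell. Ehd3 had -4.98, -5.50 and -4.94 in Rheb1-/- myeloid cells, 2 of them above background, and -4.37, -3.94 and -3.81 in wild-type myeloid cells, a 2.14-fold fall (-1.10 ± 0.27, limma adjusted p = 0.0117). Fhl1, also above background on 2 of 3 Rheb1-/- arrays, had -5.41, -7.11 and -5.31 there and -5.04, -3.83 and -4.05 in wild-type myeloid cells. It fell 3.11-fold (-1.64 ± 0.50, limma adjusted p = 0.0297), and Rheb1-/- array 2 was again the lowest. Nbeal2 had 0.39, 0.05 and -0.06 in Rheb1-/- myeloid cells and 1.41, 0.98 and 1.08 in wild-type myeloid cells, with little spread in either. It fell 2.04-fold and had the smallest p of the list here (-1.03 ± 0.17, limma adjusted p = 0.00192). A second Nbeal2 probe, above background on all 12 arrays, gave -0.58 in myeloid cells and -0.17 in progenitors. Of the enzymes and other genes, Pdzk1ip1, a small membrane protein, fell. It had -1.91, -2.30 and -1.95 in Rheb1-/- myeloid cells and -1.13, -0.97 and -0.53 in wild-type myeloid cells, a 2.26-fold fall (-1.17 ± 0.21, limma adjusted p = 0.00295). Gucy1a1 and Gucy1b1 were not above background on any myeloid array.

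The count of 17 depended on single arrays, being 8 without wild-type array 2, 9 without Rheb1-/- array 2 and 10 without wild-type array 3, where 13.1%, 13.5% and 12.7% of all genes were lower. Clec1b, Gp1bb, Ppbp, Nbeal2 and Pdzk1ip1 passed in 25 of 25 other settings, and Cd226 in 8 of 24. Markers of other blood cells moved as well, and their part in the result was not tested. The counts of each list stand beside 17.7% of all genes lower and 16.5% higher by limma. Erythroid markers fell in 15 of 17 cases, with a summed log2 signal of 6.66 to 8.78 in Rheb1-/- and 9.48 to 10.18 in wild-type myeloid cells. B cell markers fell in 7 of 9 cases (2.98 to 3.47 in Rheb1-/- and 3.89 to 4.92 in wild-type myeloid cells), and eosinophil, basophil and mast cell markers in 6 of 14 (6.67 to 7.51 in Rheb1-/- and 7.29 to 7.97 in wild-type myeloid cells). Of the other lists, monocyte and macrophage markers had 11 lower and 2 higher of 18 by limma, T and NK cell markers 6 lower and 1 higher of 10, endothelial markers 5 lower of 14, stem cell markers 3 lower and 2 higher of 19, and neutrophil markers 2 lower and 5 higher of 16. The members' summed signal was 7.06 to 7.25 in Rheb1-/- and 7.48 to 7.51 in wild-type myeloid cells. Among 28 transcription factors and thrombopoietin signalling genes 5 fell and 1 rose by limma (median -0.19). The share that fell was near the 17.7% of all genes. Those passing limma included Gata1 (-1.38, adjusted p = 0.00535), the factor that drives erythroid and megakaryocyte genes, its partner Zfpm1 (-1.33, adjusted p = 0.00659), and Lyl1 (0.46, adjusted p = 0.00675). Gata1 is also an erythroid marker. Among 43 other platelet genes 16 fell and 1 rose by limma (median -0.42), led by the receptor Cd84 (-0.70, adjusted p = 0.00143), the adaptor Dok2 (-1.28, adjusted p = 0.00148) and talin, Tln1 (-0.64, adjusted p = 0.00265).

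**Figure D3:**
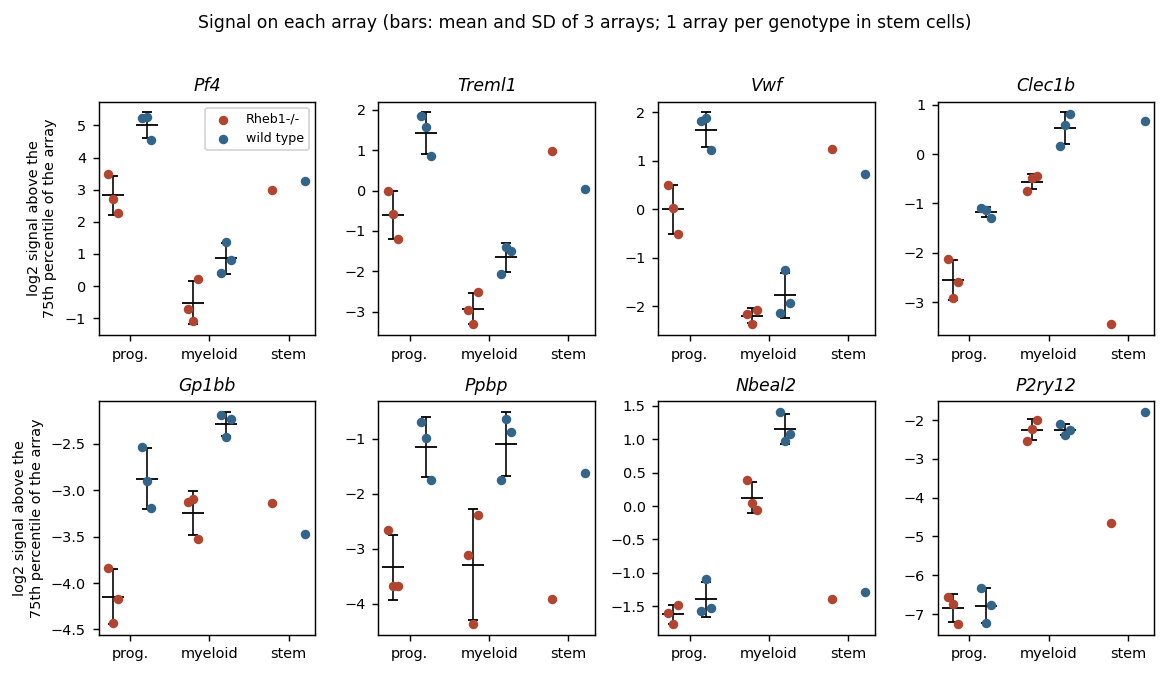
Log2 signal of 8 members on each array of progenitors, myeloid cells and stem cells, with points for arrays and, where there are 3, the mean and SD. Pf4, Treml1, Clec1b, Gp1bb and Ppbp separate the genotypes both in progenitors and in myeloid cells, and Vwf does so in progenitors only. Nbeal2 separates them in myeloid cells only (-0.06 to 0.39 in Rheb1-/-, 0.98 to 1.41 in wild type), and P2ry12 in neither of these cell types.

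Whether the genotype difference itself differed between cell types was tested as an interaction. By limma 0 of 36 members passed, where 5.32% of all genes were lower and 5.56% higher, and 1 was lower and 2 higher at an unadjusted p under 0.05 (16.3% and 14.1% of all genes). Nbeal2 had an interaction of -0.81 ± 0.24 (adjusted p = 0.0573 by limma), from a genotype difference of -1.03 in myeloid cells and -0.22 in progenitors. Vwf had 1.21 ± 0.42 (adjusted p = 0.0855 by limma), its differences being -0.42 in myeloid cells and -1.63 in progenitors. Gucy1a1 had 1.13 (adjusted p = 0.135 by limma), with myeloid signals below background. Of the next 5 members by p, Gucy1b1 had 1.10, Gp5 0.93, Treml1 0.76, Selp -0.58 and Plek 0.56, with limma adjusted p values of 0.281 to 0.341. The members' median interaction was 0.15, against -0.08 over all genes.

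Between cell types, receptors, granule genes and genes of cytoskeleton and trafficking each held members that fell and members that rose. Such a split was common among all genes. Set against progenitors of the same genotype, 17 fell and 11 rose in Rheb1-/- myeloid cells (39% and 29.5% of all genes), and 16 fell and 12 rose in wild-type myeloid cells (38.9% and 38.7%). These comparisons share arrays with those of genotype, and in wild type no slide held both cell types. P2ry12, which was not above background in progenitors, averaged -2.25 ± 0.27 in Rheb1-/- and -2.24 ± 0.14 in wild-type myeloid cells (SD, n = 3 each). It was at least 14.8-fold higher in Rheb1-/- and at least 11.8-fold higher in wild-type myeloid cells than in progenitors. P2ry12 and Cd226 were tested only because myeloid arrays read them above background. Their rises, counted among the 11 and the 12, are therefore not independent of the filter. Thbs1 had 1.41, -0.19 and -0.30 in Rheb1-/- myeloid cells and -3.93, -5.54 and -1.37 in Rheb1-/- progenitors, which stood apart. Thbs1 rose by 3.92 and 3.39 on the log2 scale in Rheb1-/- and wild-type cells, Plek by 2.91 and 2.35, Cd9 by 2.38 and 2.49, Itgb3 by 2.20 and 2.08, Clec1b by 1.99 and 1.70, Nbeal2 by 1.75 and 2.56, and F5 by 1.61 and 1.85. Gp1bb, Cd226 and Fermt3 rose by less, and Ptgs1 passed in wild type alone (0.36, limma adjusted p = 0.0372, against 0.33 and 0.0534 in Rheb1-/-).

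Going the other way, Pf4 averaged -0.53 in Rheb1-/- myeloid cells and 2.83 in Rheb1-/- progenitors, a difference of -3.35 ± 0.41 (limma adjusted p = 3.64e-05), and 0.86 in wild-type myeloid cells and 5.02 in wild-type progenitors, a difference of -4.16 ± 0.41 (limma adjusted p = 5.18e-06). Itga2b fell, with -3.73 in Rheb1-/- and -3.79 in wild type, while its integrin partner Itgb3 rose in both. Gp1ba fell, with differences of -2.50 in Rheb1-/- and -2.89 in wild type, as did Gp9 (-0.68 and -1.06), while Gp1bb of the same complex rose (0.90 and 0.59). Differences were -2.20 in Rheb1-/- and -3.41 in wild type for Vwf, -2.31 and -3.08 for Treml1, and -1.90 and -2.04 for Serpine2, all of which fell. Array by array, Itga2b had -4.14, -5.46 and -5.07 in Rheb1-/- myeloid cells and -0.72, -1.33 and -1.44 in Rheb1-/- progenitors. In wild type it had -3.62, -4.03 and -3.81 in myeloid cells and 0.29, 0.00 and -0.39 in progenitors. The cell types lay far apart in both genotypes. Plek, at the other end, had 3.92, 3.63 and 3.99 in Rheb1-/- myeloid cells and 1.66, 0.60 and 0.56 in Rheb1-/- progenitors. Several members were not well above background in myeloid cells. Gp5 had -6.17, -7.26 and -6.10 in Rheb1-/- myeloid cells and -3.49, -3.89 and -4.06 in Rheb1-/- progenitors. Rab27b had -6.81, -6.23 and -6.12 in Rheb1-/- myeloid cells and -3.14, -3.53 and -3.82 in Rheb1-/- progenitors, again with no overlap. Mmrn1 was at least 6.47-fold, Rab27b at least 5.30-fold and Gp5 at least 4.25-fold lower in Rheb1-/- myeloid cells than in Rheb1-/- progenitors. Gucy1a1 was at least 10.3-fold, Gucy1b1 at least 6.17-fold and F2rl3 at least 3.73-fold lower in wild-type myeloid cells than in wild-type progenitors. Gp5, Rab27b, Gucy1a1, Gucy1b1, F2rl3 and Slamf1 were tested only because progenitor arrays read them above background. Their falls between cell types, counted above, are therefore not independent of the filter. Ppbp differed by 0.05 in either genotype (limma adjusted p = 0.940 in Rheb1-/- and 0.930 in wild type), with a 95% interval of -1.11 to 1.21 in Rheb1-/- cells.

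**Figure D4:**
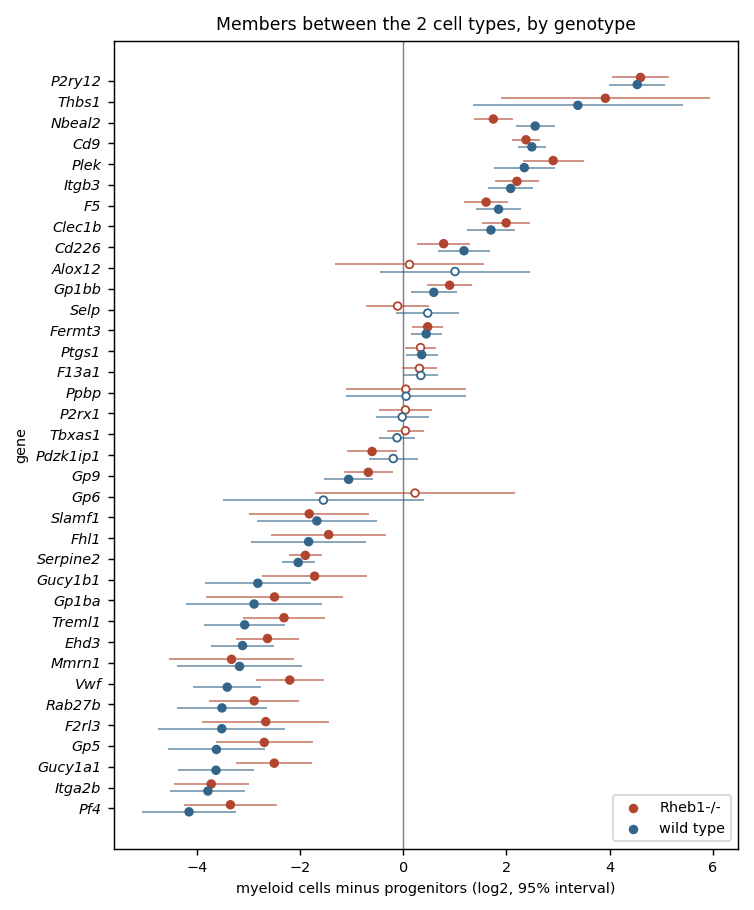
Log2 difference of myeloid cells minus progenitors for each member in Rheb1-/- and in wild-type mice, with 95% intervals, and filled points where limma's adjusted p was under 0.05. P2ry12 and Thbs1 (3.92 in Rheb1-/-) lie at the high end, the point of P2ry12 being taken against progenitor signals not above background, and Pf4 and Itga2b are among the lowest in both genotypes.

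In stem cells each genotype had 1 array, so no difference has a replicate check and none was tested. Of the 35 members above background on both arrays, 5 lay at or under -1 and 2 at or over 1, where 6.29% and 5.30% of all genes did. Their median was 0.16, against 0.13 over all genes. Clec1b stood out with -3.45 in Rheb1-/- and 0.66 in wild-type stem cells, a difference of -4.11. Thbs1 had -4.49 in Rheb1-/- and -1.63 in wild-type stem cells, P2ry12 -4.64 and -1.79, Ppbp -3.91 and -1.63, and F5 -3.36 and -1.25. The order of genotypes was the opposite for Selp, with 0.89 in Rheb1-/- and -0.68 in wild-type stem cells, and for Itga2b, with -0.03 and -1.21. Treml1 (0.94), Gp5 (0.92) and Slamf1 (0.89) followed. Pf4, at 2.98 in Rheb1-/- and 3.27 in wild-type stem cells, differed by -0.29. Monocyte and macrophage markers summed to 7.03 in Rheb1-/- and 8.67 in wild-type stem cells, eosinophil, basophil and mast cell markers to 5.07 and 8.21, and erythroid markers to 4.96 and 6.74. Their part in these differences was not tested.

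Set beside progenitors, 11 members had both stem cell arrays above each of the 6 progenitor arrays. The shares of all genes that lay above or below in this way were not computed, so these are values only. Among the 11 were P2ry12, not above background on any progenitor array, and Cd226, above background on 1 Rheb1-/- progenitor array. Mmrn1 had 0.50 in Rheb1-/- and 0.68 in wild-type stem cells, against means of -3.12 in Rheb1-/- and -1.21 in wild-type progenitors. Gucy1a1 had -0.48 and -0.56 in stem cells, against -4.41 and -2.59 in progenitors, and Pdzk1ip1 1.95 and 1.53, against -1.44 and -0.68. F13a1, Ptgs1, F5 and Serpine2 lay below each of the 6 progenitor arrays on both stem cell arrays.

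**Figure D5:**
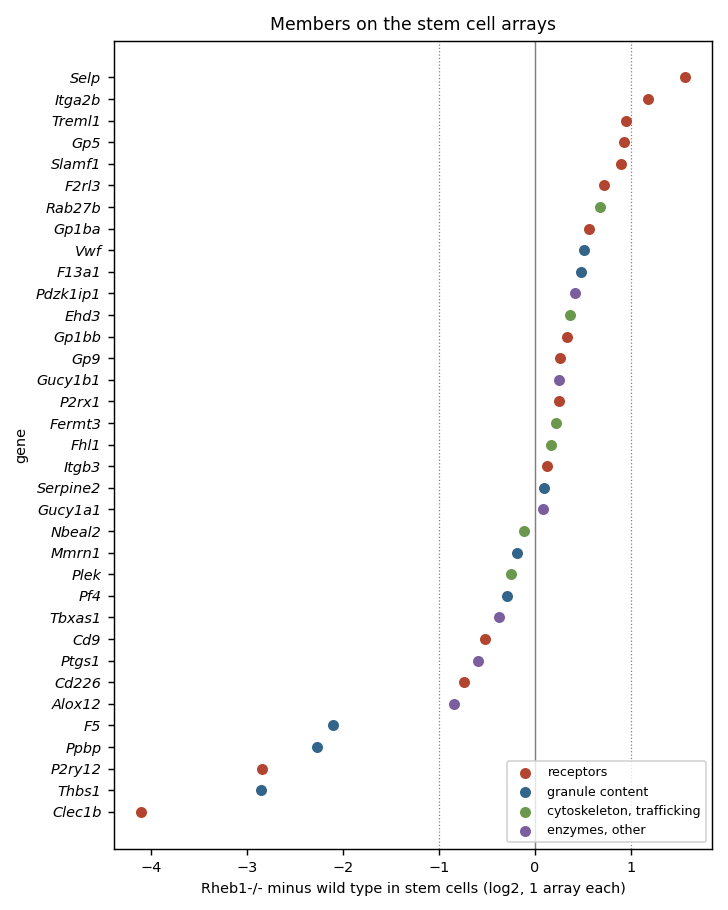
Log2 difference, Rheb1-/- minus wild-type stem cells, of the 35 members above background on both arrays, by role, with 1 array per genotype and dotted lines at -1 and 1. Clec1b lies lowest at -4.11 and Selp highest at 1.56.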

How the data were processed

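The deposited files were Agilent Feature Extraction output (version 10.7.3.1 per the file headers, 9.1 per the submitters' processing notes). Their background-subtracted processed intensity was used as deposited. The authors' deposited value table of log2 values served as an alternative: its arrays share 1 distribution, with quantiles within 0.002344 and a median of 5.92 per array, and correlate with the scanner intensities at r = 0.998 to 1.00, while its background treatment is not stated in the labels. Control spots and outlier spots were left out, and log2 intensity was centred on the 75th percentile of each array. The probe with the highest mean over 12 arrays stood for a gene, and genes were tested if every array of 1 or more replicated groups read them well above background. Cd226 passed this filter through wild-type myeloid cells alone, and Gp6, Gucy1b1 and Slamf1 through wild-type progenitors alone. For these members, comparisons with that group are not independent of the filter. P2ry12 passed through myeloid cells alone, and Gp5, F2rl3, Rab27b and Gucy1a1 through progenitors alone, in both genotypes or in wild type and Rheb1-/- alike. For them, comparisons between cell types are not independent of the filter. One limma fit (version 3.58.1, R 4.3.3) held the 4 groups of 3 arrays, with Benjamini-Hochberg adjustment over 17720 genes and a threshold of 0.05. The fit had 8 residual degrees of freedom and a median residual SD of 0.182, and the number of arrays limits the precision. Samples are not tied to animals by any label. The p-values therefore reflect only how these samples spread, which may be technical.

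The members and lists were chosen with earlier results of these data known. The rule for values per array took, in each contrast, the 8 members with the largest differences among those passing without overlap, or the 8 of smallest p where fewer than 5 passed. In the interaction and between cell types some of these are given only as means, differences or bounds. For stem cells these were the 5 largest differences in each direction, with up to 3 genes of each other list. One gene of these lists is not reported here. Vwf, Nbeal2 and P2ry12 in myeloid cells, Ppbp and Gp6 in progenitors, and further members were given after their values were seen. The lists read beside the members were megakaryocyte transcription factors and thrombopoietin signalling, other platelet genes, and markers of erythroid, endothelial, stem, neutrophil, monocyte, eosinophil, basophil and mast, B, and T and NK cells. The code was tested on simulated data. Alternatives covered background correction, normalization, probe choice, filters, blocks, weights and leaving out arrays.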

Additional observations from a re-analysis of the deposited data

Results flagged for a closer look

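Itga2b, the integrin subunit that marks the megakaryocyte lineage, differed in direction between cell types. Its log2 difference, Rheb1-/- minus wild type, was 1.17 in stem cells, against -1.13 in progenitors and -1.07 in myeloid cells. All Rheb1-/- arrays of the replicated cell types lay below the wild-type ones, and the single Rheb1-/- stem cell array lay above the wild-type one. It was singled out by a stem cell difference of at least 2-fold. Other members turned the same way below that size, among them Treml1 (0.94 in stem cells and -2.02 in progenitors), Gp5 (0.92 and -1.64), Slamf1 (0.89 and -1.35), Rab27b (0.68 and -1.74) and Vwf (0.51 and -1.63). The difference between cell types was not tested, since stem cells had 1 array per genotype. Groups of 3 arrays were not examined for outlying samples.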

How the results depend on the processing

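In progenitors the count of members lower (0 as reported) was 11 with normexp background correction (0.113% of all genes) and 2 with genes above background on all 12 arrays (0.0776%). It was 3 with array weights (0.119%) and 7 with an intensity trend and robust prior (0.169%). The count ranged from 0 to 9 when single arrays were left out, where 0.0111% to 0.312% of all genes were lower. The members' median there (-1.12) was -0.71 with normexp, -0.79 with the all-array filter and -0.78 with slide as a fixed block. It was also -0.78 with the progenitors of the shared slide kept beside all myeloid cells, a setting chosen after seeing the data. Without single arrays it was -1.32 to -0.92. In myeloid cells the count lower (17) was 11 with the all-array filter, which leaves 21 members (18.5% of all genes lower). Without single arrays it was 8 to 18 (12.6% to 17.9% of all genes). The count higher was 1 with slide as a random block (3630 of 17720 genes in all) and 0 to 1 without single arrays. The median (-0.75) was -0.41 with normexp and -0.91 to -0.69 without single arrays. In the interaction 1 member was lower with normexp, the mean of all probes, the all-array filter, slide as a random block and the trend, and 1 higher with normexp. In these settings 4.05% to 7.3% of all genes were lower, and with normexp 836 of 17720 genes were higher. Without single arrays, 0 to 1 members were lower (2.62% to 5.72% of all genes), 0 to 1 higher, and the members' median was 0.07 to 0.33. For myeloid cells against progenitors in Rheb1-/-, the count lower (17) was 6 with the all-array filter (43% of all genes) and 11 with slide as a fixed block (32.2%). Without single arrays it was 14 to 18 (36.6% to 39% of all genes), with 11 to 12 higher. The median turned to 0.31 with the all-array filter and was -0.40 to -0.017 without single arrays. In wild type the count lower (16) was 5 with the all-array filter (44% of all genes) and 15 to 18 without single arrays, with 10 to 14 higher. The median turned to 0.36 with that filter and was -0.40 to -0.07 without single arrays. With the mean of all probes, Cd226 turned to -0.15 in Rheb1-/- and Tbxas1 to 0.49 in wild type in the same comparison. The cause of these shifts was not tested, except that the all-array filter tests fewer members.

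With the replicate block, 1 member was lower in progenitors (0.0282% of all genes) and 1 higher in myeloid cells (2755 of 17720 genes in all). Same-numbered samples correlated at -0.149 to 0.13 and 8 of 24 comparisons were highest with the own number. No label ties these samples beyond the number, and so few arrays cannot settle whether they were paired. A fixed slide block could not be fitted for the genotype difference in myeloid cells, the interaction or the wild-type comparison of cell types. Signals near background limit Slamf1, Mmrn1, Rab27b, Cd226, P2ry12 in progenitors, and Gucy1a1 and Gucy1b1 in myeloid cells.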
